A study of Homo sapiens with 12 samples.

Results

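Senescent IMR-90 cells at 20% oxygen were compared with young IMR-90 cells at the same oxygen level, over all genes named by the array. IMR-90 is an established line of human lung fibroblasts whose cells divide a limited number of times in culture. The comparison takes 6 of the 12 Affymetrix arrays of the series, 3 of senescent cells at population doubling 48 and 3 of young cells at population doubling 30, and covers 19775 genes. The other 6 arrays, from cultures at 3% oxygen, hold young cells of population doubling 30 and nonsenescent old cells of population doubling 53. The groups share the line, the medium (DMEM with fetal bovine serum) and harvest before confluence, they carry no engineered allele, and each oxygen level had an incubator of its own. All results therefore come from 1 cell line, and population doublings and the senescent state cannot be told apart within the comparison.

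Values are log2 signals, deposited in a table where the median of every probe set across the 12 arrays is 0, averaged here over the probe sets that name the gene. It shows how arrays differ and holds no absolute level, so no gene's level can be set against another's, and presence or absence of a marker cannot be read. A change is the mean of the senescent arrays minus the mean of the young arrays at 20% oxygen, a value after ± is its standard error with n = 3 arrays per group, and a gene was called at an adjusted p under 0.05 in limma with Benjamini-Hochberg adjustment over all genes. Adjusted p-values are from that fit throughout. The labels call the replicates biological and number them but name no separate cultures, so p-values measure the spread between these arrays, which may be technical. In RNA from whole cultures, fewer expressing cells and less RNA per cell cannot be told apart. Values of arrays are given in the order of replicates 1, 2 and 3.

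Cellular senescence is a lasting arrest of the cell cycle that fibroblasts reach after many divisions or after damage. It is held by inhibitors of cyclin-dependent kinases, among them p21 (CDKN1A), a target of p53, and p16 (CDKN2A), and is known for loss of lamin B1, changed secretion of proteases and cytokines, and enlarged lysosomes. Fibroblasts of the lung make and remodel the collagen and elastic matrix of the tissue.

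Of the 19775 genes, 2474 (12.5%) were called, 923 (4.67%) higher and 1551 (7.84%) lower in senescent cells. Counts of list members given below are to be read against these shares, and counts near them are no result about a list. At least 2-fold changes were made by 102 of the genes called higher and by 270 of those called lower, and at least 4-fold changes by 10 and 40. The 3 senescent and 3 young arrays did not overlap in 922 and 1545 of the called genes, against 5793 (29.3%) of all genes. When each of the 6 arrays was left out in turn, 526 (57.0%) of the higher and 954 (61.5%) of the lower calls passed every time. The count of higher calls dropped most without young replicate 1, to 604. Young replicate 3 and senescent replicate 2 departed from their groups' means in the same direction across genes (r = 0.62), and without both of them 462 genes were called higher and 930 lower. Without them or by probe set in place of gene means, the calls of CDC25A, CDC6, GINS3, RRM2, LAMP2, ULK1, COL3A1, CTSB, E2F3, NR1D2, PDGFRA and others, given below, ended in at least 1 of these fits. As a sign of RNA quality, the 5' value of the ACTB control probe sets was taken from the 3' value. Both are centred on their own medians, so the difference only compares arrays and does not show which end was stronger. It ran from -0.19 to 0.25 in young and from 0.02 to 0.35 in senescent arrays. For GAPDH it ran from -0.04 to 0.27 in young and from -0.08 to 0.05 in senescent arrays. The ranges overlapped for both genes, and the part of RNA quality in the results was not tested.

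**Figure D1:**
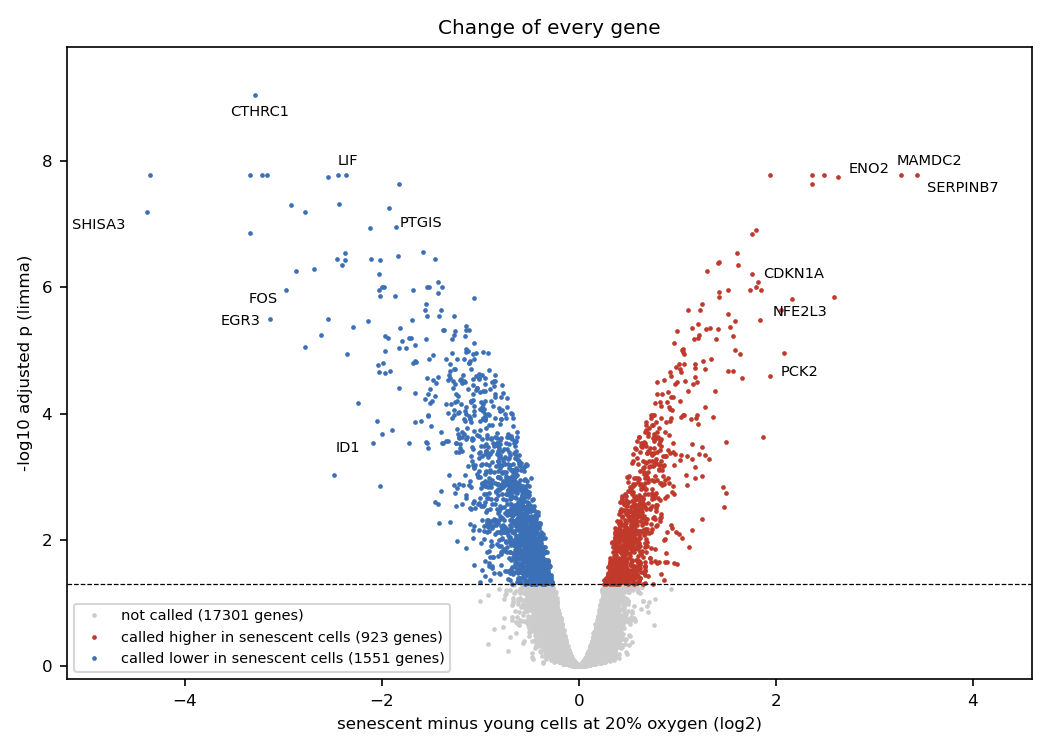
Change of each of 19775 genes, with the senescent minus young difference at 20% oxygen (log2) on the horizontal axis and the negative log10 of limma's adjusted p on the vertical axis. Each point is a gene, red for the 923 called higher and blue for the 1551 called lower in senescent cells, and the dashed line marks an adjusted p of 0.05; the left side reaches to -4.39 at SHISA3 and the right side to 3.43 at SERPINB7.

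The arrays at 3% oxygen show on which side of a difference the other cells of the series lay. Over all genes, the 3 senescent arrays fell outside the range of the other 9 arrays in 1649 (8.34%), and the 3 young arrays at 20% oxygen did so in 1989 (10.1%), with 229 in both counts. Among the called genes that rose, 353 had the senescent arrays alone outside, 335 the young arrays at 20% oxygen alone, 82 both and 153 neither. Among those that fell, 409 had the senescent arrays alone outside, 730 the young arrays at 20% oxygen alone, 142 both and 270 neither. Of the 270 genes at least 2-fold lower, in 139 the young arrays at 20% oxygen alone lay above all others, and in 60 the senescent arrays alone lay below. Both kinds of gene occur among the results below.

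**Figure D2:**
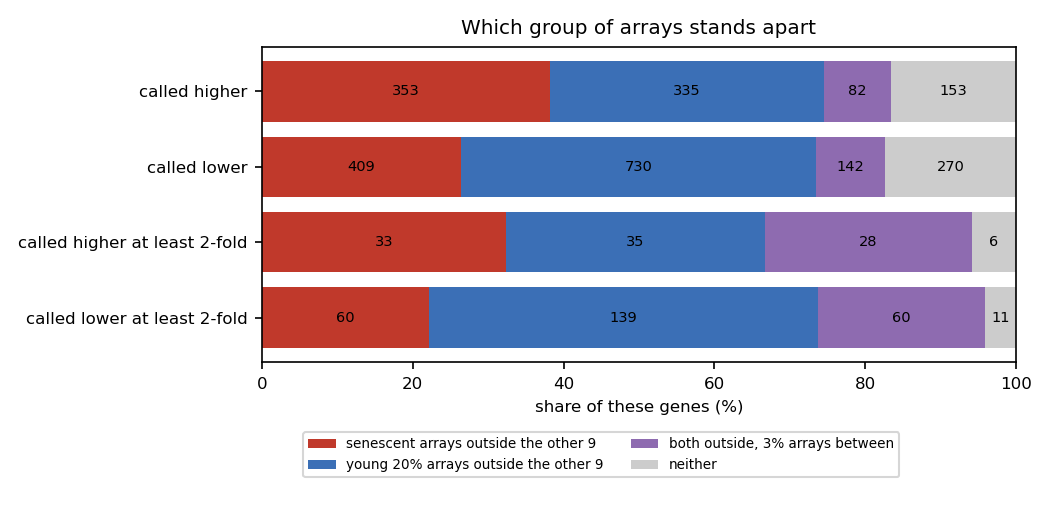
Share of called genes (horizontal axis, percent, with counts in the bars) by which group of 3 arrays lay outside the range of the other 9: senescent cells, young cells at 20% oxygen, both, or neither. The rows are genes called higher, genes called lower, and those of each changed at least 2-fold; among the genes called lower the part for young cells (730) is wider than that for senescent cells (409), and among the genes called higher they are close (335 and 353).

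Genes known to mark the state and the cell type were read beside the labels, and those of the state were mixed. CDKN1A stood at 0.01, -0.01 and -0.16 in young and at 1.64, 1.73 and 1.75 in senescent arrays, a rise of 1.76 ± 0.11 (adjusted p = 6.17e-07), with the senescent arrays above all others. LMNB1, which encodes lamin B1, stood at -0.89, -0.87 and -0.72 in young and at -1.23, -1.60 and -1.50 in senescent arrays, a change of -0.62 ± 0.12 (adjusted p = 0.00445) whose call ended under quantile normalization and without young replicate 3 and senescent replicate 2. The young arrays at 20% oxygen were themselves far below the 3% arrays in LMNB1, which ran from 0.72 to 1.12. Other genes tied to the state went in both directions. CDKN2A (0.47), MMP1 (1.80) and MMP3 (0.93) were called higher. CDKN2B (-0.32), another inhibitor of cyclin-dependent kinases, IL6 (-1.31) and CXCL8 (-2.12) were called lower, and MKI67 (0.16) was not called. Of 12 fibroblast markers 2 were called higher and 5 lower, and of 11 epithelial, 9 endothelial, 7 immune and 8 mesothelial and neural markers none was called, with list means between -0.11 and 0.08 in every group. Of 8 smooth muscle and pericyte markers 1 was called higher (NOTCH3) and 2 lower (CNN1 and ACTG2), with group means of the list between -0.09 and 0.11, and their part in the results was not tested.

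Genes of mitosis were low in both groups at 20% oxygen. The mean over 32 genes of mitosis, which build the spindle and segregate chromosomes, was -0.98 ± 0.10 (SD, n = 3) in young and -0.92 ± 0.08 in senescent arrays, against 0.79 ± 0.05 and 1.15 ± 0.15 in the young and old arrays at 3% oxygen. MKI67, a marker of cycling cells, stood at -1.15, -0.98 and -0.83 in young and at -0.66, -0.90 and -0.93 in senescent arrays, overlapping values with a difference of 0.16 and a 95% interval from -0.14 to 0.45. None of 9 cyclins and kinases of S, G2 and M phase was called. In mitosis itself 3 genes were called higher and 1 lower; 1 was higher and 2 lower without young or senescent replicate 1, and 16 higher and 4 lower with array quality weights. AURKA, a kinase of spindle poles, went from -0.29, -0.20 and -0.22 to -0.77, -1.15 and -1.07, a change of -0.76 ± 0.10, while KIF20A, a motor needed to divide the cell body, rose by 0.76 ± 0.15 from a young range that lay below all other arrays, a call that ended under quantile normalization.

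Some genes that license and copy DNA were called lower. Of 31 genes of replication licensing and the fork 8 were called lower and 0 higher, with a median of -0.18 against 0.04 over all genes, and 4 of the 8 calls passed without each array in turn. In all 8 the senescent arrays lay below the other 9 arrays. The list means were -0.33 in young and -0.58 in senescent arrays, against 0.49 in young and 0.32 in old arrays at 3% oxygen. In the mean, young cells at 20% oxygen thus already lay below both 3% groups. MCM6, a subunit of the helicase that opens origins, stood at -0.20, 0.17 and -0.02 in young and at -0.98, -1.19 and -1.16 in senescent arrays, a change of -1.09 ± 0.12 (adjusted p = 6.6e-05). GINS3 of the same helicase fell by 0.66 ± 0.14, GMNN (geminin, which blocks relicensing) by 0.56 ± 0.10 and CDC6, a loader of the helicase, by 0.54 ± 0.11. For nucleotide supply, CTPS1, which makes CTP, went from 0.14, -0.01 and 0.01 to -0.84, -1.31 and -1.31, a change of -1.20 ± 0.13, and RRM2, a subunit of ribonucleotide reductase, fell by 0.56 ± 0.12. RRM2 fell from a young level already below the 3% arrays, and CTPS1 from one within them.

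The promoter of MCM6 is shown because it was the only one, among the 8 replication genes called lower, in which the 250 bases before the start held the E2F motif searched (TTTCGCGC or TTTGGCGC, both strands, in capitals, here in overlapping pairs). Among all 27305 RefSeq promoters 0.996% held that motif. Sequences here and below are from RefSeq on GRCh38.p14, 5' to 3' on the strand of the gene, and a match describes letters only. MCM6 lies on the minus strand at chr2:135876444-135876693.
MCM6: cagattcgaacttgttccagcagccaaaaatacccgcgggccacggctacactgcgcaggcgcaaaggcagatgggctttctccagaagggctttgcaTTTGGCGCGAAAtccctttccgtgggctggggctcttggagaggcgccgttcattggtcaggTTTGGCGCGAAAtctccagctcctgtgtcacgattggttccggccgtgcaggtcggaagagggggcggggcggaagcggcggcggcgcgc

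Around the arrest, G1 regulators and chromatin proteins moved in both directions. Of 6 inhibitors of cyclin-dependent kinases 2 were called higher and 1 lower, and 1 of these 3 calls, that of CDKN1A, passed without each array. CDKN2A changed by 0.47 ± 0.13 (adjusted p = 0.0348) with young values of 0.12, 0.15 and 0.22 and senescent values of 0.65, 0.65 and 0.59; its call ended without any 1 of the 6 arrays, and its probe sets ran from 0.01 to 0.81. Of 19 targets of p53 6 were called higher and 0 lower, against 10 and 3 with array quality weights. RRM2B, the p53-induced subunit of ribonucleotide reductase, went from -0.00, 0.03 and 0.01 to 1.28, 1.11 and 1.30, a rise of 1.22 ± 0.10, and DDB2, which finds ultraviolet damage, rose by 1.18 ± 0.18. RRM2B stood above the 3% arrays in senescent cells, whereas DDB2 stood below them in young cells. CCNG1, SPATA18 and SESN1 rose by 0.93 ± 0.09, 0.79 ± 0.11 and 0.65 ± 0.13. Of the 13 other p53 targets, which include BAX (0.40), GADD45A (-0.26) and TP53I3 (-0.57), none was called.

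CCNE2, a cyclin of the G1 to S transition, fell by 0.96 ± 0.17, although one of its probe sets changed by -1.93 and the other by 0.00. CDC25A, the phosphatase that frees the kinases of that step, fell by 0.55 ± 0.12, and CDK6 rose by 0.54 ± 0.11. E2F3 fell by 0.88 ± 0.16 and TFDP2, a partner of E2F proteins, rose by 0.61 ± 0.11, the only 2 calls among 18 genes of RB, E2F and the DREAM complex. Of 25 genes of the lamina, high mobility group proteins and chromatin 9 were called lower and 0 higher, each with the senescent arrays below all others, and 5 of the 9 calls passed without each array. The list means were -0.28 in young and -0.50 in senescent arrays, against 0.33 in young and 0.31 in old arrays at 3% oxygen. EZH2, which methylates histone H3, went from -0.82, -0.47 and -1.06 to -1.88, -1.83 and -1.94, a change of -1.10 ± 0.13 (adjusted p = 0.000136). UHRF1, which maintains DNA methylation, fell by 0.56 ± 0.09 and HMGB1, a DNA-bending protein, by 0.47 ± 0.09. In the other direction the histone gene H2AC6 rose by 1.07 ± 0.09, the 1 call among 11 clustered histone genes.

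**Figure D3:**
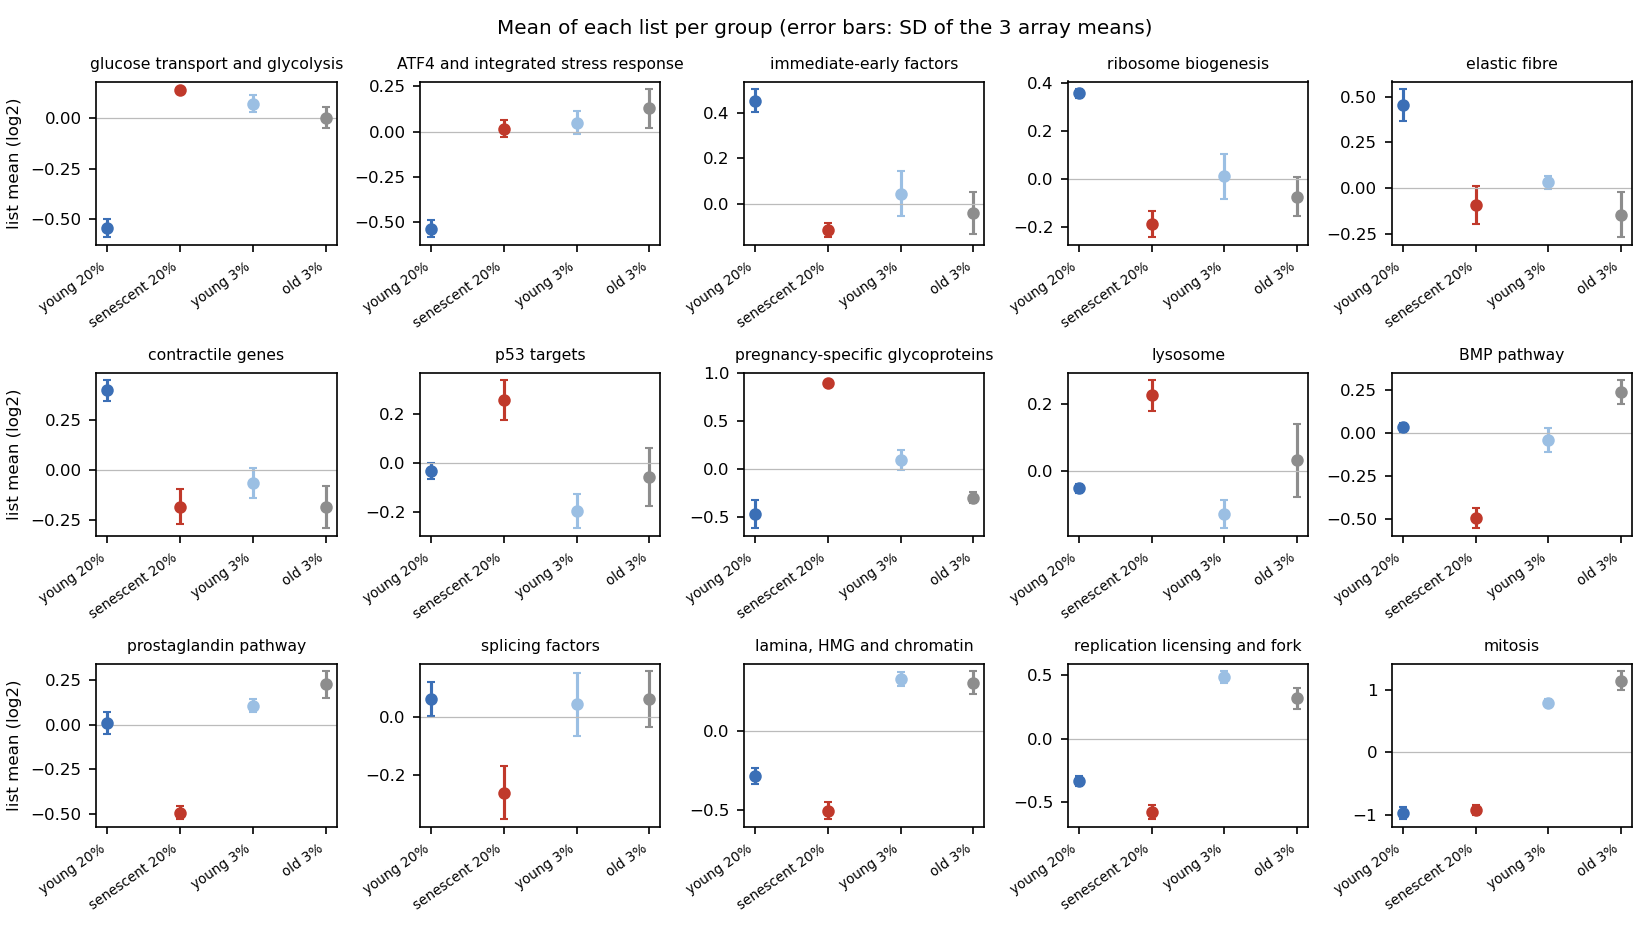
Mean log2 value of gene lists (vertical axis) in the young and the senescent group at 20% oxygen and in both groups at 3% oxygen, as points with error bars for the SD of the 3 array means. The mitosis list is low in both groups at 20% oxygen (means -0.98 and -0.92), while the glycolysis list is low in young cells at 20% oxygen alone (mean -0.54).

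Among oxygen-responsive genes were many in which young cells at 20% oxygen stood below every other group. Hypoxia-inducible factor (HIF) is a pair of an oxygen-labile alpha subunit and the stable partner ARNT; prolyl hydroxylases (EGLN1 to EGLN3) mark the alpha subunit for destruction by VHL when oxygen is present. Its target genes serve glycolysis, mitochondrial turnover, matrix hydroxylation and vessel growth. None of the 5 subunits was called: HIF1A changed by 0.10 with a 95% interval from -0.09 to 0.30, and ARNT by 0.10 with an interval from -0.07 to 0.27. Of 6 sensors and degradation factors 2 were called higher. EGLN1, itself a HIF target, went from -0.61, -0.86 and -0.66 to 0.02, 0.36 and -0.10, a rise of 0.80 ± 0.14 (adjusted p = 0.00216), with senescent arrays inside the range of the 3% arrays; its probe sets ran from -0.01 to 1.65.

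Among targets, 15 of 20 genes of glucose transport and glycolysis were called higher and 1 lower, with a median of 0.61, and 11 of the 16 calls passed without each array. ENO2, an enolase, stood at -1.90, -1.94 and -2.04 in young and at 0.67, 0.67 and 0.66 in senescent arrays, a rise of 2.63 ± 0.11 or 6.19-fold (adjusted p = 1.81e-08). PGK1, which makes ATP in glycolysis, went from -1.08, -1.08 and -1.14 to 0.25, 0.32 and 0.38, a rise of 1.42 ± 0.08 that its 6 probe sets gave as 1.15 to 1.72. Both genes had young arrays below and senescent arrays above all arrays at 3% oxygen, whereas SLC2A1, the glucose transporter GLUT1, rose by 1.42 ± 0.10 to within the 3% range. GAPDH, often used as a reference gene, rose by 0.49 ± 0.08, with young values of -0.34, -0.40 and -0.30 and senescent values of 0.10, 0.17 and 0.16. ACTB, another such gene, changed by 0.03 with a 95% interval from -0.13 to 0.19.

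Of 11 genes of pyruvate entry and mitochondrial adaptation 5 were called higher. BNIP3, a receptor for removal of mitochondria, went from -1.79, -2.06 and -2.03 to 0.37, 0.41 and 0.45, a rise of 2.37 ± 0.10, and the MYC antagonist MXI1 from -2.03, -1.87 and -1.93 to 0.58, 0.58 and 0.49, a rise of 2.49 ± 0.09. NDRG1 and DDIT4, which restrain growth and mTOR, rose by 2.37 ± 0.10 and 2.05 ± 0.15. DDIT4 went from -2.42, -2.01 and -2.73 to -0.50, -0.31 and -0.20 and remained below the range of the 3% arrays, from 0.20 to 0.54. ERO1A, which passes electrons from disulfide formation to oxygen, rose by 1.94 ± 0.08 and AK4, a mitochondrial adenylate kinase, by 1.80 ± 0.09. The vascular and systemic group had 7 of 12 genes called higher, all 7 in every leave-one-out fit, among them STC1 (1.03 ± 0.10), STC2 (1.11 ± 0.12) and ADM (0.54 ± 0.09). VEGFA, which drives vessel growth, changed by 0.20 with an interval from -0.05 to 0.45 and was not called. KDM3A, an oxygen-dependent histone demethylase, rose by 0.63 ± 0.11, 1 of 3 higher calls among 15 JmjC demethylases.

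Promoters of the oxygen genes are printed to show where the HIF core motif (ACGTG or GCGTG, both strands, in capitals) lies in genes that rose. Of the 34 oxygen genes called higher 30 had a RefSeq promoter, and 22 of them (73.3%) held the motif in the 250 bases before the start, against 43.1% of all 27305 promoters and 50.9% of those of 15384 tested genes. These lists were drawn up as oxygen-responsive genes and HIF targets, and members not called were not counted. The shares therefore say nothing about the rise. For the other motifs, too, only called members were counted. ENO2 has 1 match, PGK1 has 3 and BNIP3 has 6, some overlapping, and MXI1, which rose by 2.49, has none in this window. ENO2 lies on the plus strand at chr12:6914330-6914579, PGK1 on the plus strand at chrX:78103998-78104247 and BNIP3 on the minus strand at chr10:131981924-131982173.
ENO2: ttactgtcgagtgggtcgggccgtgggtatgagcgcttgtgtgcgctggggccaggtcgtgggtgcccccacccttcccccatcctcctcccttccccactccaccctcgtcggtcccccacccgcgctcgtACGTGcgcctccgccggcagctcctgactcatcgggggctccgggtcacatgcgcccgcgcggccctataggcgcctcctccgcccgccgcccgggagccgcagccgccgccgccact
PGK1: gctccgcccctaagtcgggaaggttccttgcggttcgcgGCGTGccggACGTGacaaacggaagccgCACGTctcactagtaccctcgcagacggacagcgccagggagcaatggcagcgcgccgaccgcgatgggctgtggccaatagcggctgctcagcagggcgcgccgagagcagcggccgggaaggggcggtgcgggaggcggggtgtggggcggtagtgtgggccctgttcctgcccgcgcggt
BNIP3: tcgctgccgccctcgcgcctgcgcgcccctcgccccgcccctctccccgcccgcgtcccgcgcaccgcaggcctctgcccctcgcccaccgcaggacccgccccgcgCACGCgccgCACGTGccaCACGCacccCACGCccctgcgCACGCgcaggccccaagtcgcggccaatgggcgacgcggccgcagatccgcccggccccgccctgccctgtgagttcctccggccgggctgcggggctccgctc

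Young cells at 20% oxygen were also low in 11 targets of ATF4, the factor of the integrated stress response, which raises amino acid synthesis and uptake. Of 22 genes 11 were called higher and 0 lower, with a median of 0.36, and in each of the 11 the young arrays at 20% oxygen lay below the other 9 arrays. PCK2, the mitochondrial enzyme that makes phosphoenolpyruvate, stood at -2.35, -2.04 and -1.52 in young and at 0.01, 0.01 and -0.12 in senescent arrays, a rise of 1.94 ± 0.19 or 3.84-fold. PSAT1, of serine synthesis, went from -1.59, -1.41 and -1.21 to 0.02, -0.02 and -0.04, a rise of 1.39 ± 0.12. PHGDH, the first enzyme of that pathway, rose by 0.74 ± 0.10 and ASNS, asparagine synthetase, by 0.79 ± 0.08. The senescent arrays stood within the 3% range for PCK2, so that the gap lay on the side of the young cells. ATF4 itself changed by 0.30 (95% interval from 0.08 to 0.52, adjusted p = 0.0783) and DDIT3, which encodes CHOP, by -0.08, and neither was called.

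Transporters and synthetases for amino acids followed by member. Of 14 amino acid transporters 4 were called higher, including SLC7A5 (0.85 ± 0.09), which imports large neutral amino acids, SLC7A11 (0.82 ± 0.12), which imports cystine, and SLC1A1 (0.91 ± 0.13), which imports glutamate. SLC7A5 values were -0.89, -0.84 and -0.87 in young and -0.07, 0.02 and -0.01 in senescent arrays, while in SLC7A11 the senescent arrays exceeded all others. Of 17 aminoacyl-tRNA synthetases, which load amino acids onto tRNAs, 5 were called higher and 4 lower, and 3 and 4 in a fit of the 6 arrays alone. AARS1, CARS1 and GARS1 rose by 0.82 ± 0.13, 0.67 ± 0.08 and 0.64 ± 0.12, and SARS1 fell by 0.67 ± 0.13, its probe sets giving -1.78 and 0.45. The unfolded protein response of the endoplasmic reticulum showed 2 of 20 genes called higher and 4 lower, against 9 and 5 with array quality weights, 3 and 1 without senescent replicate 3, and 1 and 0 without young replicate 3 and senescent replicate 2, and its chaperone HSPA5 changed by -0.06.

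Many genes that build ribosomes or splice RNA were called lower in senescent cells. Of 21 genes of ribosome biogenesis 14 were called lower and 0 higher, with a median of -0.42, and 9 calls passed without each array; in 10 the young arrays at 20% oxygen alone lay outside the other 9. RRS1, an assembly factor of the large subunit, stood at 1.18, 1.34 and 1.02 in young and at -0.16, -0.73 and -0.10 in senescent arrays, a change of -1.51 ± 0.17 (adjusted p = 6.85e-05). NOP58, of the RNA-guided methylation particle, went from 0.42, 0.38 and 0.29 to -0.64, -0.48 and -0.65, a change of -0.95 ± 0.09, and here senescent arrays were also below the 3% arrays. UTP20, for the small subunit, fell by 0.97 ± 0.16, and POLR1B, a subunit of RNA polymerase I, by 0.66 ± 0.10. NCL (-0.28) and FBL (-0.21), which encode nucleolin and fibrillarin, were not called. GAS5, a noncoding host of small nucleolar RNAs, went from 1.19, 1.02 and 0.88 to 0.07, -0.28 and -0.06, a change of -1.12 ± 0.12.

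Of 24 splicing factors 12 were called lower and 1 higher, with a median of -0.36, and 8 of the 13 calls passed without each array. SRSF6 went from 0.52, 0.47 and 0.53 to -0.52, -0.35 and -0.62, a change of -1.01 ± 0.12, and its young and senescent arrays lay on opposite sides of all arrays at 3% oxygen. SRSF7 and SRSF3, serine- and arginine-rich factors like SRSF6, changed by -0.97 ± 0.12 and -0.89 ± 0.10, although probe sets of SRSF3 ran from -2.11 to 0.07. HNRNPA1, an antagonist of such factors at splice sites, fell by 0.59 ± 0.11. Among 18 proteins of the mitochondrial ribosome 5 were called lower and 0 higher, led by MRPS30 (-0.85 ± 0.14) and MRPL15 (-0.75 ± 0.12). Of 25 respiratory chain genes 1 was called higher and 2 lower, near the shares of all genes (4.67% and 7.84%), and with array quality weights 9 and 4.

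Some chaperones of the cytosol were called lower. Of 20 heat shock chaperones 6 were called lower and 1 higher. HSPH1, a nucleotide exchange factor of HSP70, went from 0.90, 0.72 and 0.76 to -0.49, -0.69 and -0.58, a change of -1.38 ± 0.11 on which its 3 probe sets ran from -1.53 to -1.27. DNAJA1, an HSP40 co-chaperone, fell by 1.07 ± 0.11. Of 11 genes of the chaperonin and prefoldin, which fold actin and tubulin, 4 were called lower and 0 higher, with CCT5 down by 1.08 ± 0.15 from 0.43, 0.45 and 0.24 to -0.61, -0.60 and -0.90. HSPH1 separated young and senescent cells on both sides of the 3% arrays, and CCT5 on the senescent side alone. Of 23 proteasome genes 3 were called lower and 0 higher, against 7.84% and 4.67% of all genes, and 1 of the 3 calls passed without each array.

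**Figure D4:**
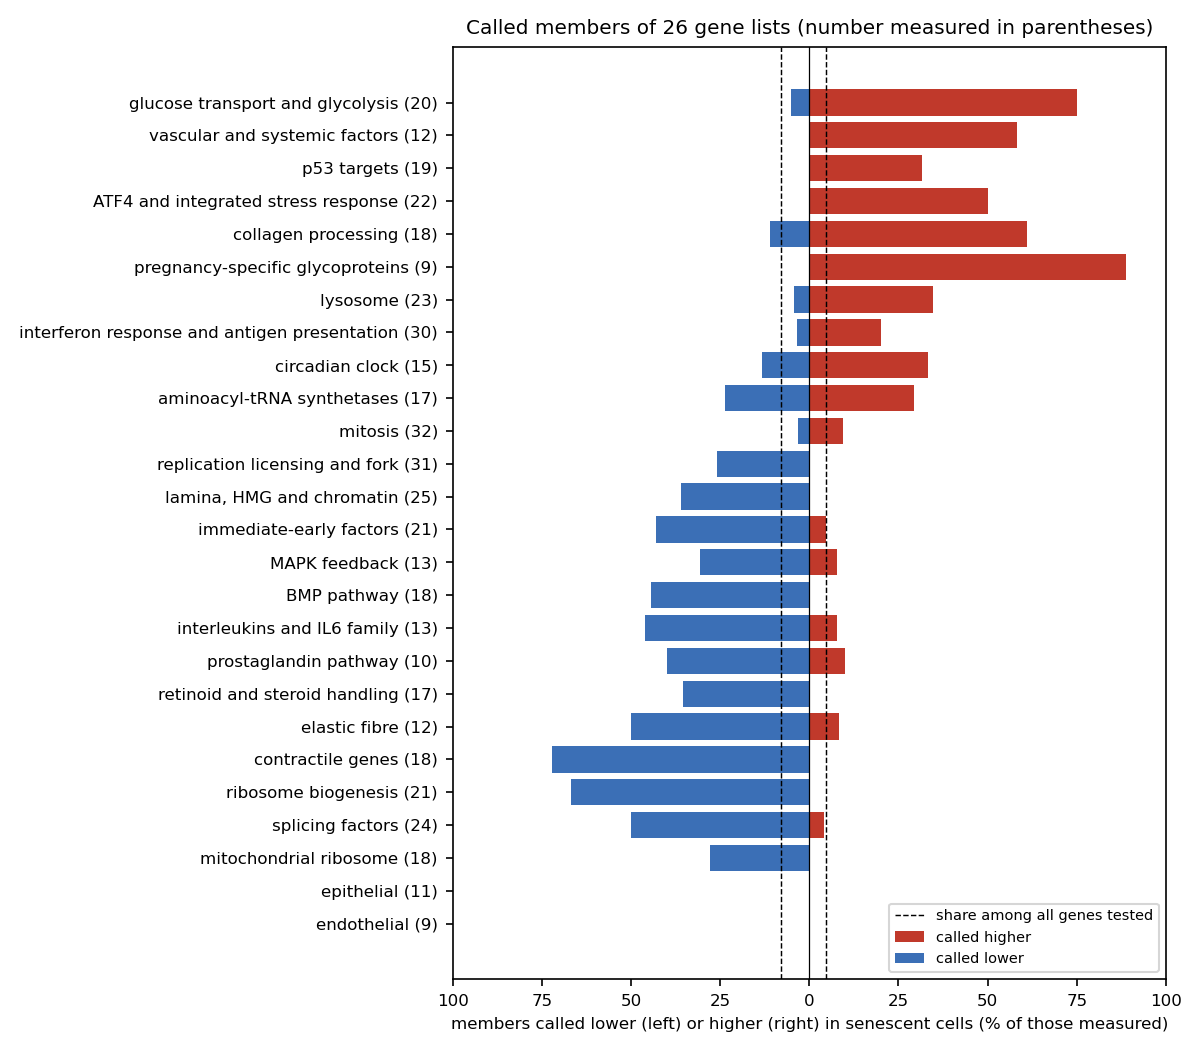
Members of gene lists called higher (right, red) and lower (left, blue) in senescent cells, as percent of those measured, with the number measured in parentheses and dashed lines at the shares over all genes, 4.67% higher and 7.84% lower. The widest bars are those of contractile genes (13 of 18) and ribosome biogenesis (14 of 21) on the left and of pregnancy-specific glycoproteins (8 of 9) and glycolysis (15 of 20) on the right. The lists shown are a choice from lists that were made with earlier results of these data known. They were not tested as sets, so a bar past a dashed line is no test result.

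Immediate-early genes, which growth factor signals switch on within minutes through the kinase ERK and the factor SRF, were called lower more often than higher. Of 21 such genes 9 were called lower and 1 higher, with a median of -0.29, and 9 of the 10 calls passed without each array. FOS stood at 2.32, 2.70 and 2.66 in young and at -0.62, -0.20 and -0.44 in senescent arrays, a change of -2.98 ± 0.20 (7.87-fold lower). EGR3 went from 2.35, 2.48 and 2.38 to -0.36, -1.31 and -0.51, a change of -3.13 ± 0.24. In FOS and EGR3 the young arrays at 20% oxygen lay above all 9 others, and senescent arrays overlapped or lay near the 3% arrays. EGR1, JUNB and SRF fell by 0.68 ± 0.09, 0.75 ± 0.14 and 0.59 ± 0.11, while FOSL2 rose by 0.43 ± 0.09. MYC (-0.24) was not called. List means were 0.46 ± 0.05 (SD, n = 3) in young, -0.12 ± 0.03 in senescent, and 0.04 ± 0.10 and -0.04 ± 0.09 in young and old cells at 3% oxygen.

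The promoter of EGR1 is printed because 2 CArG boxes, the motif that SRF binds (in capitals), lie in its 250 bases before the start. Of 9 immediate-early genes called lower 8 had a RefSeq promoter and 2 of these, EGR1 and SRF, held a CArG box there, against 1.14% of all promoters. FOS has none in this window. EGR1 lies on the plus strand at chr5:138465229-138465478.
EGR1: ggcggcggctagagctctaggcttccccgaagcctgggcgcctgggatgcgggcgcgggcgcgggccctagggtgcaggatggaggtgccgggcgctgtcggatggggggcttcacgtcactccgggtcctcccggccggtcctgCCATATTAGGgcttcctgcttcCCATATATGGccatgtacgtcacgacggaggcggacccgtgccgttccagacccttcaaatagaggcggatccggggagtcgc

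Of 13 genes for feedback inhibitors of ERK signals 4 were called lower and 1 higher, and the signal itself was not measured. SPRY4, which dampens receptor kinase signals, went from 1.12, 1.13 and 0.92 to -0.16, -0.48 and -0.39, a change of -1.40 ± 0.18. SPRY2 fell by 1.01 ± 0.10 and DUSP6, a phosphatase of ERK, by 0.57 ± 0.09. DUSP6 fell only part of the way, since its senescent values of 0.35, 0.42 and 0.38 remained above the 3% arrays, of which the highest was at -0.32. Among growth factors, HBEGF, a ligand of the EGF receptor, fell by 1.11 ± 0.09, with young values of 1.22, 1.31 and 1.27 and senescent values of 0.16, 0.27 and 0.02; its 4 probe sets ran from -2.43 to 0.05. PDGFD fell by 1.83 ± 0.11 (probe sets -3.50 and -0.16), FGF5 fell by 0.99 ± 0.15 and the receptor PDGFRA by 0.77 ± 0.13, and of 18 genes of the PDGF, FGF and HGF families 4 were called lower and 0 higher. IGFBP3, which binds insulin-like growth factors, rose by 1.15 ± 0.09 and IGFBP2 fell by 1.07 ± 0.19, a call that ended under quantile normalization.

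In the BMP pathway 8 of 18 genes were called lower. Bone morphogenetic proteins signal through SMAD1, SMAD5 and SMAD9 to raise the ID genes, which block differentiation factors, and SMAD7, an inhibitor of the pathway. None of the 18 was called higher, the median was -0.31, 5 of the 8 calls passed in every leave-one-out fit, and 6 of the 8 had senescent arrays alone outside all others. ID1 stood at 0.03, 0.19 and -0.03 in young and at -1.90, -1.67 and -2.49 in senescent arrays, a change of -2.09 ± 0.28 (4.25-fold lower). SMAD7 went from 0.21, 0.26 and 0.26 to -1.29, -1.58 and -1.39, a change of -1.66 ± 0.15, and ID3 fell by 1.43 ± 0.14, ID4 fell by 1.27 ± 0.09 and ID2 fell by 1.04 ± 0.11. The ligands BMP4 (-0.23) and BMP6 (-0.17) and the antagonist GREM1 (0.10) were not called.

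TGF-beta, Wnt and Notch genes were called one by one. Of 17 TGF-beta ligands and receptors 1 was called higher and 3 lower, against 4.67% and 7.84% of all genes. TGFB2 rose by 0.96 ± 0.14 above all other arrays, its receptor TGFBR1 fell by 0.62 ± 0.10, and LTBP2, a latency-related matrix protein, fell by 1.17 ± 0.11. Among 21 Wnt genes, 3 were higher and 4 lower: WNT2, a ligand of lung mesenchyme, went from 1.29, 1.19 and 0.78 to -1.38, -1.87 and -1.13, a change of -2.55 ± 0.19 (adjusted p = 3.2e-06). At 3% oxygen WNT2 ran from -1.12 to -0.68 in young and from 0.68 to 0.96 in old cells, so that the young arrays of the oxygen groups did not overlap. DKK1, a Wnt inhibitor, fell by 1.04 ± 0.10, DKK3 rose by 0.90 ± 0.10 and the transcription factor LEF1 fell by 0.97 ± 0.09, with probe sets from -2.81 to -0.04. Of 13 Notch genes 2 were higher and 2 lower: JAG1, a Notch ligand, fell by 0.69 ± 0.08, NOTCH3 rose by 0.67 ± 0.11 and DNER rose by 1.49.

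Secreted signals of inflammation were called lower more often than higher. Of 13 interleukins and relatives 6 were called lower and 1 higher, all 7 in every leave-one-out fit. IL6, a cytokine widely tied to senescent fibroblasts, stood at 0.09, 0.12 and 0.08 in young and at -1.04, -1.26 and -1.35 in senescent arrays, below all 9 others, a change of -1.31 ± 0.12. LIF of the same family went from 2.40, 2.43 and 2.31 to 0.08, -0.04 and 0.02, a change of -2.36 ± 0.10, and here the young cells stood apart. IL11 fell by 1.54 ± 0.12, TSLP fell by 1.33 ± 0.15, a call lost under quantile normalization, and IL33 fell by 2.02 ± 0.33, with a wide young range of 1.82, 2.06 and 0.47. IL32 was the exception, at -0.16, -0.07 and -0.15 in young and at 1.66, 1.65 and 1.58 in senescent arrays, a rise of 1.76 ± 0.09 or 3.38-fold. IL1A (-0.06) and IL1B (-0.22) were not called, and their receptor IL1R1 fell by 1.26 ± 0.12.

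Chemokines were called in 1 direction: 3 of 10 CXC and 3 of 12 CC chemokines and related factors lower, and 0 higher. CXCL8, which attracts neutrophils, went from 0.61, 0.61 and 0.83 to -1.32, -1.50 and -1.49, a change of -2.12 ± 0.11. CXCL12 went from 0.43, 0.85 and 0.40 to -1.05, -1.14 and -1.12, a change of -1.67 ± 0.14, and CCL2, which attracts monocytes, from 1.99, 1.97 and 2.09 to 0.61, 0.70 and 0.55, a change of -1.40 ± 0.24. Senescent CCL2 values stayed above the 3% arrays, which ran from -3.18 to -0.55, whereas senescent CXCL8 and CXCL12 values lay below theirs. Enzymes and receptors of prostaglandins, lipid signals of inflammation, were lower in 4 of 10 and higher in 1. PTGIS, prostacyclin synthase, fell by 1.93 ± 0.09 with probe sets from -5.68 to -0.03, PTGS2, the inducible cyclooxygenase, fell by 1.18 ± 0.19 and PTGS1 by 0.83 ± 0.11. PTGS2 was below the 3% arrays in both groups, at -0.93, -1.01 and -1.17 in young and -1.90, -2.79 and -1.95 in senescent arrays.

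**Figure D5:**
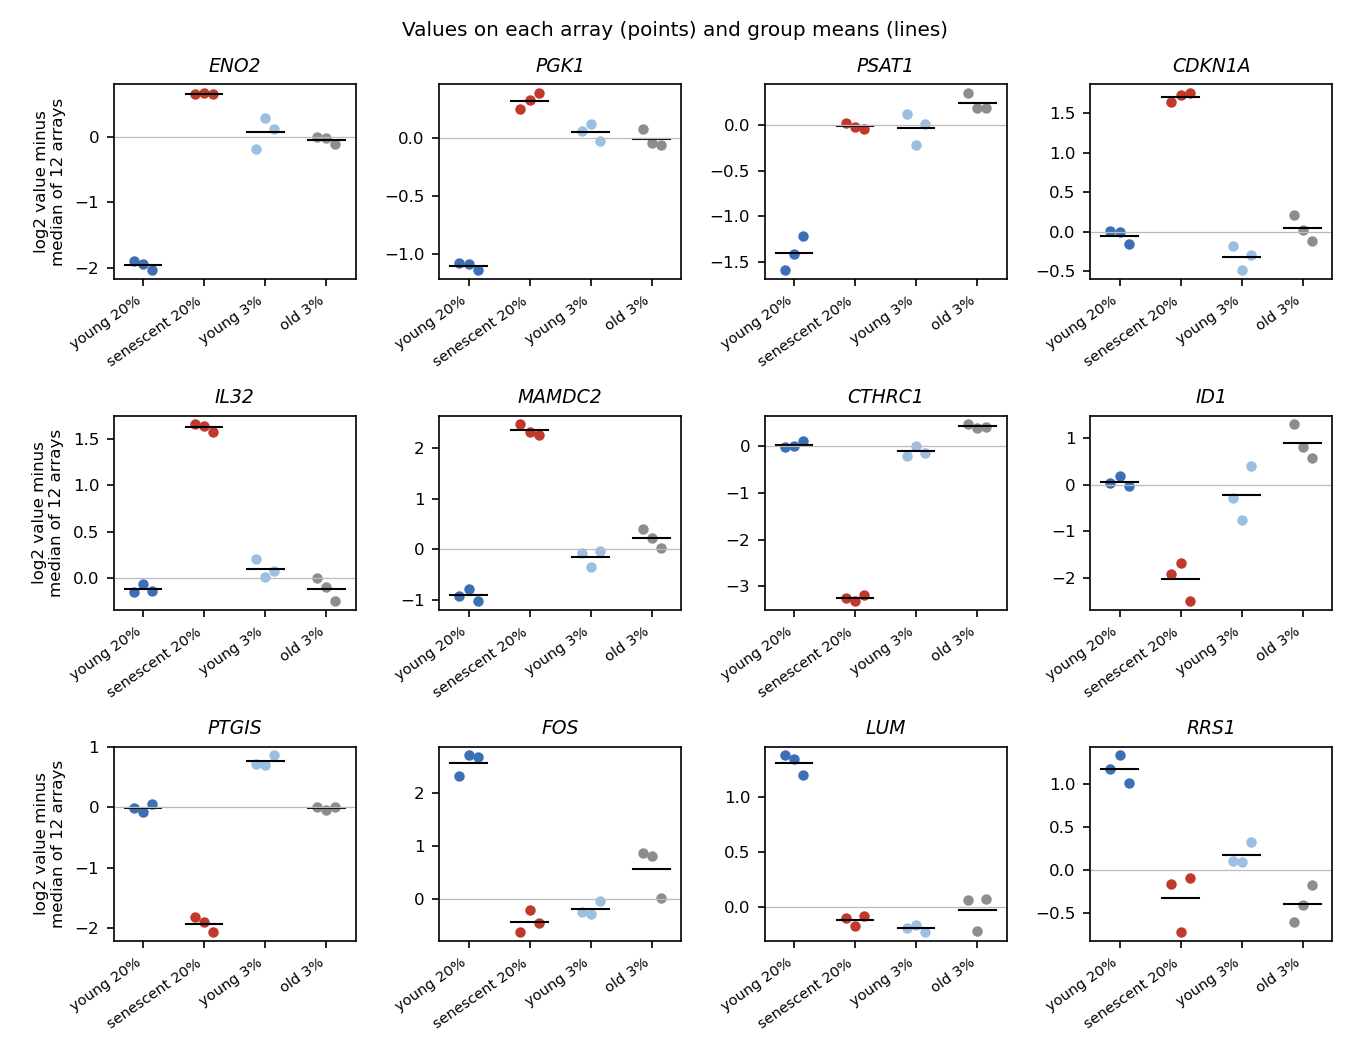
Log2 value relative to the median over the 12 arrays (vertical axis) of ENO2, PGK1, PSAT1, CDKN1A, IL32, MAMDC2, CTHRC1, ID1, PTGIS, FOS, LUM and RRS1, with a point per array and a line at the mean of each group of 3. ENO2, PGK1 and PSAT1 are low and FOS, LUM and RRS1 high in young cells at 20% oxygen, while CDKN1A and IL32 are high and CTHRC1, ID1 and PTGIS low in senescent cells, with no overlap with the other groups.

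Proteases and their inhibitors split by member. Of 16 matrix metalloproteinases and inhibitors 4 were called higher and 2 lower. MMP1, the interstitial collagenase, stood at -0.02, 0.08 and 0.02 in young and at 1.79, 1.84 and 1.84 in senescent arrays, above all others, a rise of 1.80 ± 0.12. MMP3, which activates MMP1, rose by 0.93 ± 0.19 and the inhibitor TIMP3 fell by 0.55 ± 0.09, while MMP2 (-0.11) and MMP14 (0.29) were not called. In the plasminogen and serpin group 5 of 10 genes were higher and 2 lower. SERPINB7, an intracellular protease inhibitor, went from -2.56, -2.29 and -2.62 to 0.98, 1.02 and 0.82, a rise of 3.43 ± 0.14, the largest in the comparison. SERPINF1, a secreted inhibitor of vessel growth, went from 2.99, 3.05 and 3.09 to 0.05, 0.38 and -0.05, a change of -2.92 ± 0.14, and PLAU, urokinase, fell by 1.48 ± 0.15. Of 14 complement and coagulation genes 2 were lower and 1 higher (2 and 3 under quantile normalization): the proteases C1R and C1S fell by 1.87 ± 0.13 and 1.23 ± 0.21, and CD59, which protects cells from complement, rose by 0.55 ± 0.09. Their inhibitor SERPING1 rose by 0.96 ± 0.16.

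Many genes of collagen processing were called higher, and single matrix proteins lower. Of 18 genes that hydroxylate, fold and cross-link collagen 11 were called higher and 2 lower, with a median of 0.54, and 9 of the 13 calls passed without each array. LOX, which cross-links collagen and elastin, went from -1.14, -1.25 and -1.03 to 0.33, 0.46 and 0.32, a rise of 1.51 ± 0.11, and LOXL3 from -0.21, 0.00 and -0.21 to 1.36, 1.53 and 1.16, a rise of 1.49 ± 0.20. LOXL3 and LOXL4 (0.96 ± 0.13) had senescent arrays above all others. PLOD1 and PLOD2, lysyl hydroxylases, rose by 1.25 ± 0.17 and 1.28 ± 0.14. LOX, PLOD2 and the prolyl hydroxylases P4HA1 and P4HA2 (1.00 ± 0.08) stand in the oxygen lists as well, so the 2 counts are not independent. COL1A1 and COL1A2, the chains of type I collagen, changed by 0.13 and 0.00 with 95% intervals from -0.08 to 0.33 and from -0.20 to 0.21, while COL3A1 fell by 0.55 ± 0.12 and COL5A3 by 0.82 ± 0.14.

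Elastic fibre genes were lower in 6 of 12 and higher in 1, with a median of -0.53. MFAP4 stood at 2.12, 2.59 and 2.04 in young and at 0.15, 0.45 and 0.07 in senescent arrays, a change of -2.03 ± 0.20, and ELN, elastin, fell by 1.14 ± 0.14 with probe sets of -2.20 and -0.08. FBN2 and FBLN1, which scaffold the fibre, changed by -1.02 ± 0.16 and -0.95 ± 0.11. Of 9 small leucine-rich proteoglycans, which space collagen fibrils, 3 were lower and 0 higher: LUM went from 1.38, 1.34 and 1.20 to -0.10, -0.18 and -0.08, a change of -1.43 ± 0.10, and DCN fell by 1.06 ± 0.10. TNC, a protein of healing and developing matrix, fell by 2.03 ± 0.14. MFAP4, LUM, DCN and TNC all had young arrays at 20% oxygen above the other 9. TNFAIP6, which links hyaluronan, fell by 2.37 ± 0.14, and COL14A1, on fibril surfaces, by 2.03 ± 0.13 with probe sets from -4.55 to 0.13. CTHRC1, a secreted protein of activated fibroblasts, stood at -0.01, 0.01 and 0.10 in young and at -3.24, -3.32 and -3.19 in senescent arrays, a change of -3.29 ± 0.09 (9.75-fold lower) to below all other arrays.

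Of 18 contractile genes 13 were called lower and 0 higher, with a median of -0.48, and 7 of the 13 calls passed without each array. ACTC1, an actin of heart muscle that fibroblasts also make, went from 0.66, 1.02 and 0.34 to -0.60, -0.90 and -0.85, a change of -1.46 ± 0.16. MYH10, a nonmuscle myosin, fell by 1.29 ± 0.11 and ACTA2, the smooth muscle actin of myofibroblasts, by 0.69 ± 0.11. In 9 of the 13 genes the young arrays at 20% oxygen alone lay outside the others, as in ACTA2, whereas MYH10 had the senescent arrays below. Adhesion receptors shifted in both directions: of 15 integrins 3 were higher and 2 lower, with ITGA6, a laminin receptor, up by 1.34 ± 0.12, ITGB5 up by 0.72 ± 0.11 and ITGA1, a collagen receptor, down by 0.65 ± 0.11. Of 11 cadherins and protocadherins 5 were lower and 0 higher. CDH11, the main cadherin of mesenchyme, went from 0.17, 0.20 and 0.27 to -0.77, -0.72 and -0.84, a change of -0.99 ± 0.11, PCDH7 fell by 1.18 ± 0.12 and CDH6 by 0.92 ± 0.11.

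Guidance cues, channels and receptors held some of the larger single changes. SLIT2, a repellent of migrating cells, went from 0.79, 0.89 and 0.78 to -0.57, -0.74 and -0.91, a change of -1.56 ± 0.11, and EFNB2, an ephrin ligand, fell by 1.09 ± 0.12. Their list had 5 of 18 genes lower and 1 higher. SEMA6D rose by 1.43 ± 0.10, with probe sets from 0.16 to 2.49, 1 of 2 calls among 17 semaphorins, plexins and neuropilins, a count near the share of all genes called (12.5%). TRPA1, an irritant-gated cation channel, stood at 2.14, 2.05 and 2.29 in young and at -0.44, -0.78 and -0.65 in senescent arrays, a change of -2.78 ± 0.13 (6.87-fold lower). KCNMA1, a calcium-activated potassium channel, rose by 0.76 ± 0.09. OXTR, the oxytocin receptor, went from -0.43, -0.46 and -0.29 to 1.22, 1.31 and 1.00, a rise of 1.56 ± 0.15, and RGS2, which shuts off G proteins, fell by 1.21 ± 0.14.

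Metal and redox genes formed smaller groups. Of 21 genes of zinc, copper and iron handling 7 were higher and 4 lower, 6 of the 7 being metallothioneins, which bind zinc and copper and whose near-identical sequences can share probes. MT2A went from -0.25, -0.46 and -0.35 to 0.29, 0.36 and 0.39, a rise of 0.70 ± 0.10, and MT1X rose by 0.76 ± 0.12. SLC30A1, which exports zinc, moved the other way, from 0.71, 0.77 and 0.76 to -0.11, -0.02 and -0.03, a change of -0.80 ± 0.11, with probe sets from -1.29 to 0.14. HEPH, a copper-dependent ferroxidase, fell by 2.45 ± 0.09, with probe sets of -4.95 and 0.05. Of 22 NRF2 targets 2 were higher and 5 lower: EPHX1 and NQO1, detoxifying enzymes, changed by -1.26 ± 0.13 and -1.04 ± 0.13, GCLC, which makes glutathione, rose by 0.64 ± 0.09, and HMOX1 (-0.09) was not called. Of 20 superoxide and peroxide enzymes 4 were higher and 2 lower: PRDX4, a peroxidase of the secretory pathway, rose by 1.05 ± 0.09, and GPX7 was lower (-0.91).

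The promoter of MT2A is printed for the metal response motif (TGCACNC or TGCGCNC, both strands, in capitals). It has 7 matches in the 250 bases before the start, and of the 6 metallothioneins called higher 3 had a RefSeq promoter, each with the motif, against 24.7% of all promoters. MT2A lies on the plus strand at chr16:56608334-56608583.
MT2A: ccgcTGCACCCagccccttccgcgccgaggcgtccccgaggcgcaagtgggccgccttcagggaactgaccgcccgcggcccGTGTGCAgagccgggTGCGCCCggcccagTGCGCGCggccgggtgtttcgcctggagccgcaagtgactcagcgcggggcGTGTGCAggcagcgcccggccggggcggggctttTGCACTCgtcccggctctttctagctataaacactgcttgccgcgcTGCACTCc

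Lysosomal and autophagy genes rose in part. Of 23 lysosomal genes 8 were called higher and 1 lower, with a median of 0.17, and 4 of the 9 calls passed without each array. ATP6AP1, of the proton pump, went from -0.55, -0.34 and -0.54 to 0.56, 0.52 and 0.62, a rise of 1.05 ± 0.09. LAMP2, of the lysosomal membrane, rose by 0.51 ± 0.10. In a separate list of 11 cathepsins 2 were called higher and 2 lower. CTSB rose by 0.53 ± 0.10 and CTSA by 0.43, while CTSO (-0.98) and CTSK (-0.49) were lower. Of 21 autophagy genes 4 were higher and 1 lower. MAP1LC3B, which coats autophagosomes, went from -0.05, -0.09 and -0.06 to 0.62, 0.59 and 0.56, a rise of 0.66 ± 0.10, with senescent arrays above all others, and GABARAPL2 of the same family rose by 0.55 ± 0.09. ULK1, a kinase that starts the process, rose by 0.52 ± 0.10, while SQSTM1 (-0.03) was not called.

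Among clock genes, 5 of 15 were higher and 2 lower. NFIL3, a repressor of clock output, went from -1.19, -1.09 and -1.68 to -0.15, -0.21 and -0.03, a rise of 1.19 ± 0.14, and RORA, which activates BMAL1, rose by 0.92 ± 0.10 with 8 probe sets from -0.00 to 2.55. NR1D2, the opposing repressor, rose by 0.78 ± 0.13, and BMAL1 (-0.33) and CLOCK (-0.15) were not called. Steroid and retinoid genes were lower in 6 of 17 and higher in 0. RARRES2, which encodes chemerin, went from 3.07, 3.30 and 3.01 to -0.29, 0.13 and -0.46, a change of -3.33 ± 0.18 (10.1-fold lower), and CYP1B1 fell by 1.79 ± 0.15, with probe sets from -3.47 to 0.04. FKBP5, a glucocorticoid-induced chaperone, fell by 1.10 ± 0.16. RARRES2 was high in young cells at 20% oxygen alone, and FKBP5 low in senescent cells alone.

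Gene families of other kinds held further calls. Of 9 pregnancy-specific glycoproteins 8 were called higher, all 8 in every leave-one-out fit, with a median of 1.56; these are close paralogs whose probe sets may share signal, so members cannot be read apart. PSG3 went from -0.75, -1.05 and -1.60 to 0.91, 1.15 and 0.79, a rise of 2.08 ± 0.18, and PSG4 rose by 1.56 ± 0.13. Of 17 imprinted genes, expressed from the copy of 1 parent, 2 were higher and 4 lower. DIRAS3, a growth-restraining GTPase, went from 0.45, 0.38 and 0.24 to -1.36, -1.64 and -1.41, a change of -1.83 ± 0.16, and PLAGL1, a zinc finger factor, from -1.22, -1.14 and -1.19 to 0.02, 0.05 and 0.08, a rise of 1.23 ± 0.09. DIRAS3 stood apart in senescent cells and PLAGL1 in young cells at 20% oxygen. HLA-B and HLA-C, also similar in sequence, rose by 0.73 ± 0.09 and 0.80 ± 0.10 in a list of 30 interferon and antigen presentation genes with 6 higher and 1 lower.

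The ends of the comparison hold genes outside these lists. MAMDC2, a secreted MAM-domain protein, stood at -0.92, -0.80 and -1.03 in young and at 2.47, 2.33 and 2.26 in senescent arrays, a rise of 3.27 ± 0.12 or 9.65-fold. MOK, a kinase related to the MAP kinases, went from -0.17, -0.17 and 0.01 to 2.56, 2.54 and 2.36, a rise of 2.59 ± 0.18, and MAP3K7CL rose by 2.17 ± 0.15. NFE2L3, a relative of NRF2, rose by 1.84 ± 0.14, CPA4, a carboxypeptidase, by 1.81 ± 0.12 and PLCB4, a phospholipase, by 1.73 ± 0.12. In MOK, MAP3K7CL, NFE2L3, CPA4 and PLCB4 the senescent arrays alone lay above the other 9. SHISA3, a regulator of Wnt receptors, stood at 2.29, 2.85 and 2.32 in young and at -2.07, -2.20 and -1.43 in senescent arrays, a change of -4.39 ± 0.21 (20.9-fold lower), and FGL2, a fibrinogen-like protein, at 1.32, 1.52 and 1.06 against senescent values between -3.39 and -2.78, a change of -4.36 ± 0.17. OCIAD2 went from 0.09, 0.04 and -0.06 to -3.29, -2.77 and -2.46, a change of -2.87 ± 0.18 below all other arrays, and CPE, a carboxypeptidase of hormone processing, fell by 2.55 ± 0.11, with probe sets of -4.20 and -0.90.

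The change at 20% oxygen was set against the change from young to old cells at 3% oxygen by the interaction of the same fit, which called 1273 genes (6.44%). It was read for the 10 largest rises and the 10 largest falls, all 20 of which were called. These genes were chosen on the change at 20% oxygen, which is part of the interaction, so their calls describe size and support nothing further.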

How the data were processed

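RNA of 12 samples was hybridised to Affymetrix arrays, and RMA gave the values the authors deposited, per the submitters' processing notes. They are log2 values by assumption, since the deposited table does not state the base, and in the table as deposited the median of every probe set across arrays is 0 (within 1e-06); arrays carry no read depth, and their number limits the precision. Of 54675 probe sets, 41091 name 1 gene, 1801 several and 11721 none, and 62 are controls. Probe sets naming 1 gene were averaged to 19775 genes, and the others were left out. A group-means model of the 12 arrays was run in limma 3.58.1 (R 4.3.3; lmFit, then eBayes, two-sided, Benjamini-Hochberg over all genes, called at an adjusted p under 0.05), for senescent minus young cells at 20% oxygen and for its interaction with old minus young cells at 3%. The fit was tested on simulated data with noise drawn independently for every gene and array. That test cannot speak to arrays that deviate together across genes.

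Genes were named by rule: the 20 largest rises and 20 largest falls among called genes whose arrays do not overlap, per list up to 8 members by absolute change, a panel of 41 measured genes, the 10 largest changes each among genes whose senescent arrays, or young arrays at 20% oxygen, lie outside the other 9, and up to 6 of these whose probe sets differ most. Other genes named were chosen after their values were seen. The members and lists were chosen with earlier results of these data known. Lists, 94 in number with 1398 distinct measured genes (183 called higher, 271 lower), are described by counts and medians beside those over all genes and were not tested as sets; since they were chosen so, the share of their genes called (32.5%) is no result. Alternatives were another eBayes fit, other collapses of probe sets, renormalization, array weights, a replicate block, other thresholds and leaving out arrays; leaving out young replicate 3 and senescent replicate 2 together was chosen after seeing the data. Same-numbered young and senescent arrays had deviations from their group means that correlated at 0.14, -0.48 and -0.50, so the replicate numbers were not taken as pairs. Promoters are the 250 bases before the start in RefSeq. Raw array files were not used here.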

Additional observations from a re-analysis of the deposited data

Results flagged for a closer look

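For 20 genes the change from young to senescent cells at 20% oxygen differed from the change from young to old nonsenescent cells at 3% oxygen by the interaction term of the limma fit. They are the 10 largest rises and the 10 largest falls at 20% oxygen, so the interaction is no independent support for them. The difference between both changes, in log2 units, was 3.68 for SERPINB7, 2.91 for MAMDC2, 2.75 for ENO2, 2.68 for MOK, 2.58 for MXI1, 2.57 for BNIP3, 2.11 for NDRG1, 2.32 for MAP3K7CL, 2.5 for PSG3 and 1.84 for DDIT4. Among the falls it was -5.26 for SHISA3, -3.87 for FGL2, -3.05 for SCG5, -3.49 for RARRES2, -3.82 for CTHRC1, -3.19 for TMEM176A, -3.49 for WFDC1, -2.37 for EGR3, -3.73 for FOS and -2.31 for SERPINF1.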

How the results depend on the processing

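The count of called genes (2474, of which 923 higher and 1551 lower) moved with the following settings. Array quality weights gave 6203 (3101 and 3102), so that higher and lower calls were nearly equal in number, with weights of 5.54 for young and 5.69 for senescent replicate 1, the highest of the 12. Single probe sets in place of gene means gave 4678 calls (1758 and 2920) among 41091 probe sets. That is a count of probe sets and cannot be set against the count of genes. A replicate block within the 6 arrays gave 1185 (401 and 784), and a replicate block over all 12 arrays 2303, but the numbers do not pair these samples. Leaving out both young replicate 3 and senescent replicate 2 gave 1392 (462 and 930), an adjusted p under 0.01 gave 1477 (526 and 951), and a minimum absolute log2 change of 1 gave 372 (102 and 270). Leaving out 1 array at a time gave 1687 to 1949 genes, 604 to 761 higher and 1083 to 1262 lower. Counts under an intensity trend with robust eBayes, quantile normalization, centring of arrays, the 6 arrays alone, the probe set with the largest SD and without flat genes were between 2101 and 2686. Of 758 named or listed genes followed, KDM5A alone reversed, from -0.18, not called, to 0.79 in its probe set with the largest SD. For each gene, the fit of single probe sets and the fit by largest SD both read that same probe set, so they are not separate checks. The causes were not tested. Of the 758 genes, quantile normalization ended the calls of 20, among them LMNB1, KIF20A, IGFBP2 and TSLP. Leaving out both young replicate 3 and senescent replicate 2 ended the calls of 119, among them CDC25A, CDC6, CDKN2A, GINS3, LAMP2, LMNB1, RRM2 and ULK1. Leaving out 1 array at a time ended 64 to 83 calls per fit, and that of CDKN2A in all 6 fits. Single probe sets ended 43 calls, and the probe set with the largest SD 51. Those of COL3A1, CTSB, E2F3, NR1D2, PDGFRA and RRM2 ended in 1 or both of these fits, and that of HMGB1 in the fit by largest SD. Of 1570 called genes with several probe sets, 327 have probe sets that differ in sign. Signal over background cannot be read from centred values, so no filter on dim probes could be set.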

Other observations

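Some groups outside the report's main lines held single changes. Among 24 factors of lung mesenchyme 5 were called lower and 2 higher: SOX11 fell by 0.80 ± 0.12, with senescent values of -0.66, -0.77 and -0.71 below the other 9 arrays, and OSR1 rose by 0.91 ± 0.14, from -0.55, -0.34 and -0.41 to 0.55, 0.41 and 0.47, whereas FOXF1 (-0.16) and TBX4 (-0.02) were not called. Among 20 apoptosis genes, MCL1, which holds cells alive, fell by 0.61 ± 0.09, BAK1, which permeabilises mitochondria, fell by 0.73 ± 0.15, and the decoy receptor TNFRSF10D rose by 0.69 ± 0.10. Of 19 genes of cholesterol synthesis and uptake 5 were lower and 1 higher, with HMGCS1, an early enzyme of the pathway, down by 0.71 ± 0.09 from 1.07, 1.09 and 1.26 to 0.50, 0.49 and 0.31. Of 19 genes of fatty acid synthesis and storage 2 were higher and 3 lower: FABP5, a carrier of fatty acids, fell by 1.49 ± 0.16, and HILPDA rose by 1.66. Besides GAS5, 2 host genes of microRNAs were lower among 12 long noncoding RNAs: MIR100HG fell by 1.06 ± 0.09 and MIR31HG fell by 0.99 ± 0.16, in both with the young arrays at 20% oxygen above the other 9.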
